A study of Mus musculus with 3 samples.

Results

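The genes described here are 5 chemokine ligands of T cells, *Ccl1*, *Ccl3*, *Ccl4*, *Ccl5* and *Xcl1*, out of 31053 genes counted in sorted mouse spleen CD4+ T cells. They were chosen by name, but selected on their measured levels in these same libraries, so the values below describe them and no test was made of them. Single-cell RNA libraries were made, 1 for each of 3 conditions. The unstimulated WT library held cells of Ift20 f/f mice kept in DPBS (0 h), and the stimulated WT library held cells of Ift20 f/f mice treated over 24 h with antibodies to CD3 and to CD28, each at 1 μg/mL, which engage the T cell receptor and its costimulatory receptor. The stimulated IFT20-KO library held Ift20 f/f CD4 cre cells given the same treatment. All mice were on the C57BL/6 background, both genotypes carried the floxed *Ift20* allele, and the labels do not give the age of the mice or whether animals were pooled (the methods describe the mice of the study as males aged 5 to 10 weeks). The Cre is driven by the *Cd4* promoter, which is active already in the thymus, so the deletion preceded stimulation and also affects T cells that once expressed CD4. Cells were enriched as naïve CD4+ T cells before treatment and sorted as 7AAD-CD3+CD4+ cells, and the labels name a 5′ kit where the methods name a 3′ kit.

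Chemokines are small secreted proteins that guide leukocytes along gradients by binding receptors coupled to G proteins. CCL3 and CCL4 are made by activated T cells, macrophages and NK cells, and CCL3 binds CCR1. CCL5 binds CCR1 and CCR3 and is typical of memory and cytotoxic T cells, CCL1 is the ligand of CCR8, which is known on Th2 and regulatory T cells, and XCL1 is the ligand of XCR1 on cross-presenting dendritic cells.

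The deposited values are numbers of unique molecular identifiers (UMIs) read per gene and cell, and since a UMI marks a single RNA molecule they need no correction for transcript length. The cell filter required over 200 detected genes and less than 15% mitochondrial UMIs, which left 8031 of 8253 unstimulated WT, 9903 of 10320 stimulated WT and 13920 of 13932 IFT20-KO barcodes. The kept cells held 37133949, 116979076 and 106435143 UMIs, with medians of 4627, 12167 and 5014.5 UMIs per cell. The fewest UMIs in any barcode, before this filter, were 500, 709 and 1493, so the IFT20-KO library lacked the shallowest barcodes. Between 125 and 207 barcodes were shared by each pair of libraries. Levels are given as counts per 1000000 UMIs (CPM), summed over the kept cells of a library. Every 95% interval covers counting error only. *Ift20*, the deleted gene, was at 64.4 CPM in unstimulated WT, 76.0 CPM in stimulated WT and 6.60 CPM in IFT20-KO cells. The T cell genes *Cd3e* and *Cd4* were at 905 to 1022 CPM and 120 to 219 CPM in the 3 libraries. Of the other lineages, no gene of the B cell, NK cell, basophil and erythroid lists exceeded 2.48 CPM, and of the myeloid list only *Cd68* exceeded 0.431 CPM, at up to 3.44 CPM. *Cd8a* was at most at 0.291 CPM, while *Cd8b1* was at 28.6, 9.04 and 11.2 CPM.

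The loci are on GRCm38, from the GENCODE M21 annotation, in which all 5 gene identifiers of the files were found. *Ccl3* (chromosome 11, 83647844 to 83649355, minus strand) and *Ccl4* (chromosome 11, 83662584 to 83664683, plus strand) lie 13229 bases apart in opposite orientation, with *Ccl5* (chromosome 11, 83525778 to 83530518, minus strand) 117326 bases from *Ccl3*. *Ccl1* (chromosome 11, 82176657 to 82305690, minus strand) lies 1220088 bases from *Ccl5*. The RefSeq start of *Ccl1* used below lies inside this GENCODE span, so the distance holds for the span and not for that start. *Xcl1* is on chromosome 1 (164931644 to 164935527, minus strand). It overlaps a noncoding transcript on the opposite strand, so reads of the pair could not be told apart if counting ignored strand. Each main transcript has 3 exons. The 250 bases before the RefSeq start of *Ccl1*, *Ccl3* and *Xcl1* are shown, and they let the bases next to each start be compared. These members were at or near 0 in unstimulated cells and measured after stimulation. *Ccl4* was too, but the sequences before *Ccl4* and *Ccl5* were missing from the promoter set used. Capitals mark GGAAA, the core that NFAT factors bind, read on either strand (TTTCC is the same core on the other strand), and in *Ccl1* also an NF-kB site.

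*Ccl1*, chr11:82179813-82180062, minus strand, GRCm38.p6: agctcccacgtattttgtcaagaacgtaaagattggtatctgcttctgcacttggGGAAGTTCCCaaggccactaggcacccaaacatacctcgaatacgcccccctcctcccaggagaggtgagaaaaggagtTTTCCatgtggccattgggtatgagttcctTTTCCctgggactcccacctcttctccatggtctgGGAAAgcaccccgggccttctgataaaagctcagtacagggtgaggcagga
*Ccl3*, chr11:83649379-83649628, minus strand, GRCm38.p6: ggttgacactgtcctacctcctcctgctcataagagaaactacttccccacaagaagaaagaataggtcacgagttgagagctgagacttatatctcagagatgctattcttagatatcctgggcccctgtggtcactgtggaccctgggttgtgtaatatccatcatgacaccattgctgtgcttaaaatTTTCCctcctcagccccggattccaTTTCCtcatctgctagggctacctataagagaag
*Xcl1*, chr1:164935523-164935772, minus strand, GRCm38.p6: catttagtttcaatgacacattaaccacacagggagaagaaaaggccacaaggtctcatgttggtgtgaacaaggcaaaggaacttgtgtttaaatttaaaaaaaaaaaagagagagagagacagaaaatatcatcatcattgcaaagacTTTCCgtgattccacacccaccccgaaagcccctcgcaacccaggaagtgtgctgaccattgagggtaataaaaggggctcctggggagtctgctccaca

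GGAAA occurred at 3 places before *Ccl1*, 2 before *Ccl3* and 1 before *Xcl1*, and 55.6% of all 32851 RefSeq promoter windows of this length hold at least 1. The NF-kB site, which 5.00% of windows hold, was found before *Ccl1* only of these 3, and the AP-1 site TGANTCA (6.75% of windows) and the TATAAA box (12.4% of windows) were found before none of them. None of these matches overlapped another. A match describes the letters and not binding.

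Stimulation was accompanied by the appearance of *Ccl3*, *Ccl4* and *Ccl1*, by a higher level of *Xcl1* and by a lower CPM of *Ccl5*, which was not seen without the 3 top cells of each library. Of the *Ccl1* UMIs of stimulated WT, 88.6% were in 3 cells. The question was which members the stimulated WT cells expressed that the unstimulated WT cells did not. The unstimulated cells were at 0 h and the stimulated cells at 24 h, with no unstimulated library at 24 h. Effects of the antibodies and of the 24 h therefore cannot be told apart, and "stimulation" here stands for both.

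*Ccl4* had 0 UMIs in unstimulated WT cells, 18271 UMIs (156 CPM, interval 154 to 159) in stimulated WT cells and 15666 UMIs (147 CPM, 145 to 150) in IFT20-KO cells. Against a floor of 3 UMIs in the library at 0, it was 1933-fold higher in stimulated WT than in unstimulated WT cells (log2 10.9, lower limit 10.6). This ratio was the highest of the 13297 genes that had 10 or more UMIs in the 2 libraries together. *Ccl3* had 0, 3949 and 2518 UMIs in the 3 libraries, or 0, 33.8 (32.7 to 34.8) and 23.7 (22.7 to 24.6) CPM. Against the same floor *Ccl3* was 418-fold higher (log2 8.71, lower limit 8.41), at position 6 of the same genes. Both were therefore undetected before stimulation at this depth, where 3 UMIs equal 0.0808 CPM.

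*Ccl1* had 0 UMIs in unstimulated WT, 1419 UMIs (12.1 CPM, 11.5 to 12.8) in stimulated WT and 9 UMIs (0.0846 CPM, 0.0387 to 0.160) in IFT20-KO cells. Against the floor of 3 UMIs it was 150-fold higher in stimulated WT than in unstimulated WT cells (log2 7.23, lower limit 6.93). Without the 3 cells with the most *Ccl1* of each library this log2 ratio was 4.10, and at 1400 UMIs per cell it was 5.12. *Xcl1* had 6, 1031 and 1291 UMIs, or 0.162, 8.81 and 12.1 CPM. Its log2 ratio of stimulated over unstimulated WT was 5.77 (4.64 to 7.22). *Ccl5* was the exception, as it was already present without stimulation. It had 296 UMIs (7.97 CPM, 7.09 to 8.93) in unstimulated WT, 413 UMIs (3.53 CPM, 3.20 to 3.89) in stimulated WT and 329 UMIs (3.09 CPM, 2.77 to 3.44) in IFT20-KO cells. Its log2 ratio of stimulated over unstimulated WT was −1.17 (−1.39 to −0.95), against a median of −0.09 over all genes.

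Of the 5 members, 4 were at least 2-fold higher in stimulated WT cells, as were 19.3% of all genes tested, and 1, *Ccl5*, was at least 2-fold lower, as were 23% of all genes. The members were picked for such levels, so nothing is read from these counts. The lower CPM of *Ccl5* did not hold when UMIs were counted per cell without scaling, which gave a log2 ratio of 0.18, nor among cells with at least 5000 UMIs, which gave 0.021. Without the 3 cells with the most *Ccl5* of each library it was −0.09 (−0.41 to 0.24). Of these, the top unstimulated cell had 92 UMIs of *Ccl5*, 13 of *Nkg7* and 1 of the NK cell gene *Ncr1*, with 3 UMIs of *Cd3e* and 0 of *Cd4*. *Ccl5* was detected in 0.473% of unstimulated and 1.99% of stimulated WT cells. With cells thinned to equal depth these shares were 0.263% and 0.306%, with overlapping intervals. Cells with at least 3 UMIs of *Ccl5* at that depth went the other way, at 0.0830% (0.0305 to 0.181) and 0.0105% (0.000267 to 0.0587). These were 6 cells and 1 cell, and the intervals overlap. CPM divides by all UMIs, and the median cell held 4627 UMIs in unstimulated and 12167 in stimulated WT. With 1 library per condition, the antibodies, the 24 h and a difference between the preparations cannot be told apart in these sums. The cause of the lower CPM was not tested.

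**Figure D1:**
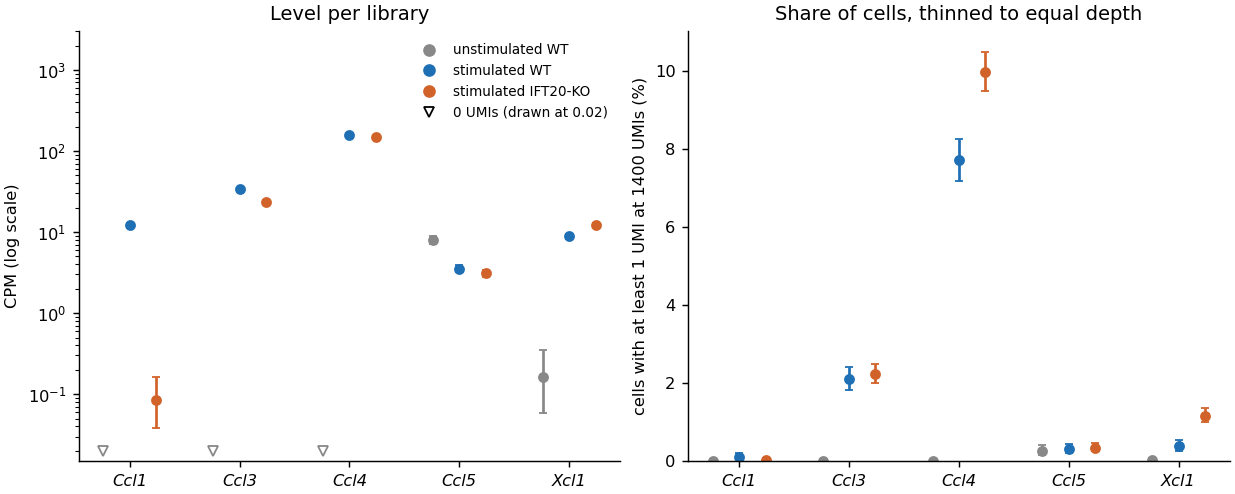
Left, CPM of each member (log scale) in the 3 libraries with exact 95% Poisson intervals, where open triangles mark 0 UMIs. Right, the percentage of cells with at least 1 UMI of the member after thinning each cell to 1400 UMIs, with exact Clopper-Pearson intervals. *Ccl4* was detected in 7.71% of stimulated WT and 9.99% of IFT20-KO cells.

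The IFT20-KO library differed from the stimulated WT library mainly in *Ccl1*. Its log2 ratio of IFT20-KO over WT was −7.16 (−8.30 to −6.24), the lowest of 13504 genes under the same minimum. *Ccl3* was lower by a smaller factor, with a log2 ratio of −0.51 (−0.59 to −0.44), *Ccl4* was nearly equal at −0.09 (−0.12 to −0.05) and *Ccl5* was at −0.19 (−0.41 to 0.02). *Xcl1* was higher at 0.46 (0.34 to 0.58). The median over all genes was 0.14. At least 2-fold lower was 1 of 5 members, *Ccl1*, beside 1.67% of all genes, and none was at least 2-fold higher, beside 3.92% of all genes.

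The *Ccl1* value rests on very few cells. In stimulated WT cells *Ccl1* was detected in 56 cells, of which 45 had 1 UMI, and 3 cells with 690, 327 and 240 UMIs held 88.6% of all its UMIs. In IFT20-KO cells it was detected in 6 cells with at most 3 UMIs each. Without the 3 cells with the most *Ccl1* of each library, 162 UMIs remained in stimulated WT and 3 in IFT20-KO cells, a log2 ratio of −5.62 (−7.91 to −4.05). The 3 top cells of stimulated WT carried no *Ccl3* and at most 1 UMI of *Ccl4*, while they had 10 to 16 UMIs of *Cd3e* and 3 to 10 of *Cd4*.

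The difference in *Ccl3* also lay in a few cells. The cell with the most *Ccl3* had 622 UMIs in stimulated WT and 57 in IFT20-KO cells. Leaving out the 1% of cells with the most *Ccl3* turned its log2 ratio of IFT20-KO over WT to 0.14 (0.02 to 0.27), and for *Ccl4* the same step gave 0.07 (0.03 to 0.12). Leaving out only the top 3 cells gave −0.19 for *Ccl3* and −0.01 for *Ccl4*. For *Xcl1* the higher level in IFT20-KO cells was larger without the top 3 cells (0.84), and it was −0.17 (−0.29 to −0.05) when UMIs were counted per cell without scaling to the depth of the library.

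Depth separated the libraries, so the members were also compared among cells of like depth. Among cells with at least 10000 UMIs, *Ccl4* was at 166 CPM (163 to 168) in stimulated WT and 167 CPM (164 to 170) in IFT20-KO cells, with intervals that overlap. Between 3000 and 10000 UMIs it was at 73.8 CPM (68.8 to 79.0) in WT and 111 CPM (107 to 116) in IFT20-KO cells, and below 3000 UMIs at 143 CPM (131 to 155) and 95.4 CPM (90.1 to 101). The order of the 2 libraries thus changed with the depth of the cells. *Ccl3* was higher in WT in the deepest cells, at 35.4 against 26.4 CPM, and in the shallowest, at 59.8 against 23.1 CPM. It was lower in WT in between, at 10.3 against 15 CPM. Of the 231 *Ccl3* UMIs in the shallowest WT cells, 120 were in 1 cell of 2259 UMIs, so that value rests largely on 1 cell. *Xcl1* was higher in IFT20-KO cells in all 3 bands, at 8.64 against 5.69, 13.4 against 8.17 and 12.3 against 9.0 CPM from the shallowest to the deepest. In the shallowest band its intervals overlapped (7.10 to 10.4 in IFT20-KO and 3.57 to 8.62 in WT). In the middle band 1 IFT20-KO cell held 114 of 294 *Xcl1* UMIs and 1 WT cell held 65 of 92. Both values of the middle band thus rest largely on 1 cell.

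**Figure D2:**
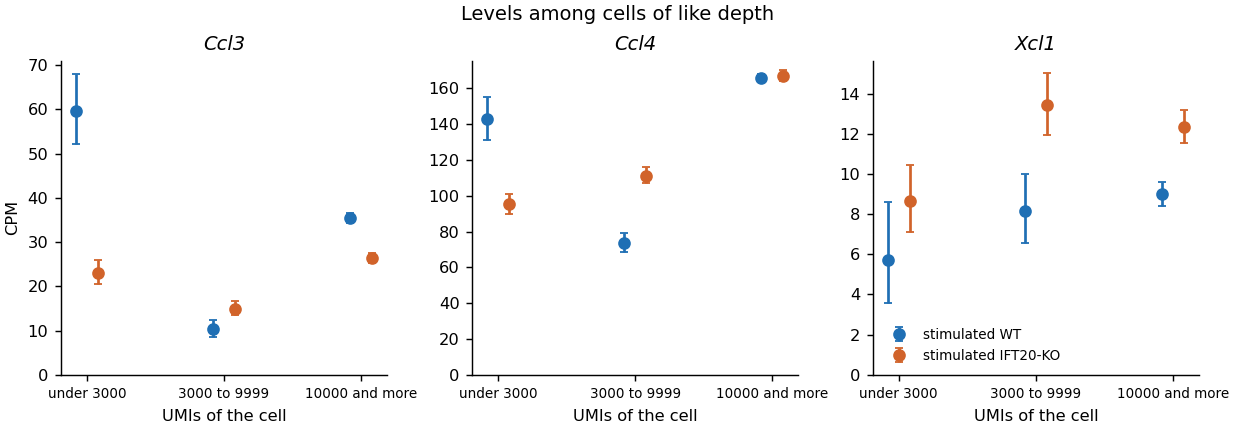
CPM of *Ccl3*, *Ccl4* and *Xcl1* among cells grouped by their UMIs, in stimulated WT and IFT20-KO cells, with exact 95% Poisson intervals. *Xcl1* was higher in IFT20-KO cells in each group, while *Ccl3* and *Ccl4* changed their order between groups. The *Xcl1* intervals overlap in the shallowest group. In the middle group 1 cell held 114 of 294 *Xcl1* UMIs in IFT20-KO and 1 cell 65 of 92 in stimulated WT. In the shallowest stimulated WT cells 1 cell held 120 of the 231 *Ccl3* UMIs.

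The share of cells with a member was compared after each cell was thinned to 1400 UMIs, which left out 801 unstimulated WT, 421 stimulated WT and 0 IFT20-KO cells. *Ccl4* was found in 7.71% (7.18 to 8.27) of stimulated WT and 9.99% (9.49 to 10.5) of IFT20-KO cells. Before thinning these were 18.9% and 22.3%. *Ccl3* was found in 2.10% (1.82 to 2.41) and 2.23% (1.99 to 2.49) of cells after thinning, and in 5.88% and 6.47% before. *Xcl1* was found in 0.380% (0.266 to 0.525) of stimulated WT and 1.16% (0.992 to 1.36) of IFT20-KO cells, and in 1.20% and 3.25% before thinning. The intervals of the 2 libraries did not overlap, and the cell with the most of it had 179 UMIs in WT and 114 in IFT20-KO. The order was the other way when at least 3 UMIs were asked for at the same depth, with *Ccl4* in 2.10% (1.82 to 2.41) of stimulated WT and 1.41% (1.22 to 1.62) of IFT20-KO cells, and *Xcl1* in 0.116% (0.0579 to 0.207) and 0.0575% (0.0248 to 0.113), or 11 and 8 cells, with intervals that overlap. *Ccl1* was found in 0.105% and 0.0216% of cells after thinning, or 10 and 3 cells. *Ccl5* was found in 0.263% of unstimulated WT, 0.306% of stimulated WT and 0.338% of IFT20-KO cells, with overlapping intervals, and in 0.473%, 1.99% and 1.31% before thinning. In the unstimulated cells no UMI of *Ccl1*, *Ccl3* or *Ccl4* was found among 8031 cells, which allows a share of up to 0.0374% of cells with a UMI by the floor of 3 counts and 0.0459% by the exact interval.

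Single UMIs can come from RNA free in the suspension, so the shares were set beside those of cells richer in UMIs of naïve genes than of activation genes in the same library, 32.4% of stimulated WT (median 9961 UMIs) and 38.0% of IFT20-KO cells (median 3347 UMIs). At 1400 UMIs, *Ccl4* was found in 2.60% of these and 10.1% of the other stimulated WT cells (median 13265 UMIs), and in 6.48% and 12.1% of IFT20-KO cells (median 7990 UMIs of the others). *Xcl1* was found in 0.0986% and 0.512% of stimulated WT cells and in 0.604% and 1.51% of IFT20-KO cells. The naïve-richer cells held up to 43 UMIs of *Ccl4* in a single cell in each stimulated library, so they were not free of expression. Cells without any UMI of the activation genes, 229 stimulated WT and 328 IFT20-KO cells, had *Ccl4* in 7.86% and 12.8% of cells before thinning, with no more than 2 UMIs in a cell. These cells were shallow (medians 1484 and 2010.5 UMIs). At 1400 UMIs *Ccl4* was found in 7.38% (3.43 to 13.5) of 122 such stimulated WT cells and in 7.71% of the others. In IFT20-KO cells these shares were 7.62% (4.99 to 11.0) and 10.0%. This background set was added after the data were seen. Of the cells with *Ccl4*, 59.6% in WT and 72.9% in IFT20-KO had 1 or 2 UMIs, and such shares are not read as expression. The part of free RNA in the shares was not tested.

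The UMIs of every member were concentrated in few cells. Before thinning, the top 1% of cells held 73.5% of *Ccl3* UMIs in stimulated WT and 58.4% in IFT20-KO cells. For *Ccl4* these were 48.3% and 42.6%, and for *Xcl1* 98.1% and 75.2%. For *Ccl5* the 3 cells with the most UMIs, at 92, 61 and 36, held 63.9% of its UMIs in unstimulated WT, against 23.2% in stimulated WT and 16.4% in IFT20-KO cells. The 3 top cells held 24.3% of *Ccl3* UMIs and 33.9% of *Xcl1* UMIs in stimulated WT, against 5.48% and 14.0% in IFT20-KO cells. The share in the top 1% of cells was higher in stimulated WT than in IFT20-KO cells for *Ccl3*, *Ccl4* and *Xcl1*. For *Ccl5* the order was the other way by this measure, at 76.3% and 86.9%. The top 1% was 99 stimulated WT and 139 IFT20-KO cells, where 119 and 453 cells had *Xcl1* and 197 and 182 had *Ccl5*. For these 2 genes the libraries were not cut alike, and their shares are not read as a difference. The 2 libraries differ in depth and in number of cells, and the part of this in these shares was not tested.

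**Figure D3:**
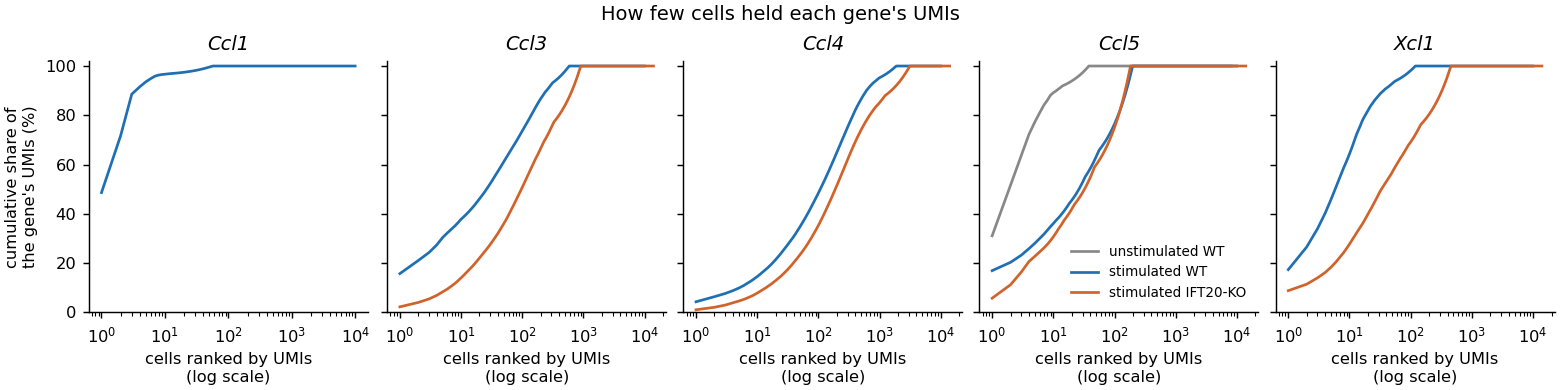
Cumulative percentage of each member's UMIs against its cells ranked by UMIs (log scale), for libraries with more than 9 UMIs of the gene. In stimulated WT cells 3 cells held 88.6% of *Ccl1* UMIs, while the 3 top cells for *Ccl4* held 7.68%.

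Counting cells with at least 3 UMIs of a member before thinning, 822 stimulated WT cells (8.30%) and 936 IFT20-KO cells (6.72%) expressed at least 1 of the 5. Stimulated WT cells were deeper (median 12167 against 5014.5 UMIs) and reach 3 UMIs more easily. These counts are therefore not compared between the libraries. The commonest patterns were *Ccl4* alone, in 522 and 620 cells, and *Ccl3* with *Ccl4*, in 217 and 194 cells, and *Xcl1* alone came next with 29 and 66 cells. In unstimulated WT cells 10 cells reached 3 UMIs of any member. Of these, 9 had *Ccl5* alone, and 1 had *Ccl5* with *Xcl1*.

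*Ccl3* and *Ccl4* were found together far more often than their shares alone would give. Of 199 stimulated WT cells with *Ccl3* at 1400 UMIs, 135 also had *Ccl4*, where independence of the shares would give 15.3 (odds ratio 30.7). In IFT20-KO cells 141 of 311 had both, where independence would give 31.1 (odds ratio 8.21). Pearson's r of log2(UMIs + 1) was 0.52 over 9482 stimulated WT and 0.29 over 13920 IFT20-KO cells. The cells of a comparison share 1 library and 1 thinned depth. Among cells with at least 5000 UMIs before thinning, 77.0% of *Ccl3* cells had *Ccl4* in stimulated WT and 75% in IFT20-KO, so the gap between 67.8% and 45.3% seen over all cells was small at that depth. Without naïve-richer cells, an alternative added after the data were seen, these were 73.2% and 52.2%.

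The pairing was uneven. Before thinning, only 3 of 233 stimulated WT cells and 4 of 218 IFT20-KO cells with at least 3 UMIs of *Ccl3* lacked *Ccl4*. By contrast, 398 of 755 and 421 of 843 cells with at least 3 UMIs of *Ccl4* lacked *Ccl3*. In unthinned cells with at least 3 UMIs of both, *Ccl4* outnumbered *Ccl3* in 95.6% of 225 and 95.2% of 208 cells. The median was 3.5 and 3.71 *Ccl4* UMIs per *Ccl3* UMI. *Ccl3* was the less abundant of the pair over the libraries too, so a lower share of cells with *Ccl3* is also what fewer UMIs give.

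**Figure D4:**
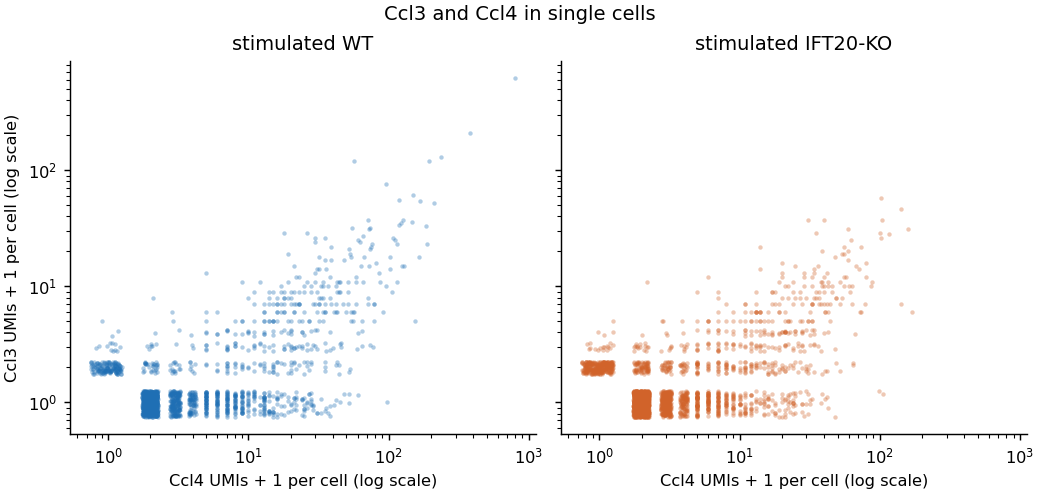
UMIs of *Ccl3* against *Ccl4* per cell (both plus 1, log scales), for cells with either gene in stimulated WT and IFT20-KO libraries; points with fewer than 4 UMIs are spread at random to show overlap. Cells with much *Ccl3* also had *Ccl4*, while many cells had *Ccl4* without *Ccl3*.

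Other pairs were found together in few cells. In stimulated WT cells *Ccl1* and *Xcl1* were both present in 3 cells, of 10 with *Ccl1* and 36 with *Xcl1*, where independence would give 0.038, and *Ccl3* and *Xcl1* in 4 cells where it would give 0.756. *Ccl4* and *Xcl1* were both present in 3 stimulated WT cells where independence would give 2.78, and in 27 IFT20-KO cells where it would give 16.2. *Ccl5* coincided with *Ccl4* in 5 stimulated WT and 7 IFT20-KO cells. A stimulated WT cell of 13728 UMIs had 29 UMIs of *Ccl1*, 210 of *Ccl3*, 378 of *Ccl4*, 179 of *Xcl1* and 170 of *Ifng*. Another of 2259 UMIs had 42, 120, 56, 9 and 60 UMIs of these genes. The cell with the most *Ccl3* and *Ccl4* had 622 and 789 UMIs of them, and the members made up 11.9% of its 12147 UMIs. None of these 3 cells had a UMI of *Cd8a*, *Ncr1* or *Lyz2*. They had 19, 9 and 16 UMIs of *Nkg7*, a gene of cytotoxic granules, and 19, 1 and 21 of *Cd3e*, and the first 2 had 2 UMIs of *Cd4* each while the cell with the most *Ccl3* and *Ccl4* had 0.

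The members were set aside when other genes were ranked by likeness to each of them, as were genes in under 1% of the cells. At 1400 UMIs in stimulated WT cells some pairs of members reached higher values than any gene named here for either of the pair. These were *Ccl3* and *Ccl4* (0.52), *Ccl1* and *Xcl1* (0.27) and *Ccl3* with *Xcl1* (0.20) or *Ccl1* (0.17). *Ccl1* and *Xcl1*, in 0.105% and 0.380% of these cells, were below the 1% asked of other genes. Their values rest on few cells. At 3000 UMIs the same pairs had 0.59, 0.20, 0.12 and 0.03. There *Il2* had 0.16 with *Ccl3*, and *Serpinb6b* had 0.13 with *Ccl1*. The other genes most like *Ccl4* over stimulated WT cells, by Pearson's r of log2(UMIs + 1) at 1400 UMIs, were *Cd40lg* (0.16), *Nr4a1* (0.16), *Il2* (0.16), *Lta* (0.14) and *Rgs16* (0.12). In IFT20-KO cells the same genes had 0.08, 0.12, 0.10, 0.08 and 0.07. For *Ccl3* they were *Il2* (0.13), *Rgs16* (0.10), *Cd40lg* (0.10), *Rgcc* (0.09) and *Lta* (0.09), with 0.06, 0.05, 0.05, 0.05 and 0.04 in IFT20-KO cells. The values are low, as counts are sparse, and the order is a description. *Ccl1* was led by *Serpinb9* (0.14), *Serpinb6b* (0.13), *Tnfsf8* (0.08), *Fasl* (0.07) and *Gsdmd* (0.07), from 10 cells with *Ccl1*. None was above 0.01 in IFT20-KO cells, where 3 cells had *Ccl1*, too few to compare. *Tnfsf8* and *Gsdmd* fell to 0.03 each when thinned to 3000 UMIs. *Xcl1* was led by *Crtam* (0.11), *Zeb2* (0.07), *Plk2* (0.07), *Tnfrsf9* (0.07) and *Psmg3* (0.07), of which *Crtam*, a surface receptor of activated T and NK cells, had 0.04 in IFT20-KO cells. *Ccl5* was led by *S100a6* (0.24), *Ahnak* (0.21), *Hopx* (0.15), *Anxa2* (0.14) and *Itgb1* (0.14) over 7230 unstimulated WT cells, and by *Serpinb6b*, *Tubgcp2*, *Emp3*, *Poll* and *Tspan3* at 0.05 to 0.07 in stimulated WT cells. At 3000 UMIs *Tubgcp2* and *Poll* turned to −0.01 each, and *Psmg3* fell to 0.0055 for *Xcl1*. In unstimulated WT cells *S100a6*, *Ahnak*, *Hopx*, *Anxa2* and *Itgb1* fell to 0.08, 0.12, 0.03, 0.04 and 0.07 for *Ccl5*. Only 19 of the 7230 unstimulated WT cells had *Ccl5* at 1400 UMIs.

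The cells with at least 3 UMIs of *Ccl4* at 1400 UMIs, called *Ccl4* producing cells here, numbered 199 in stimulated WT and 196 in IFT20-KO cells. They were compared with the other cells of their library at equal depth, leaving out the UMIs of the members, over genes with at least 3 UMIs expected in the producing cells. The cells were chosen by *Ccl4* itself, so the ratios describe them. Before thinning the producing cells were deeper than the others, with medians of 14901 and 12459 UMIs in stimulated WT and 11628.5 and 4690.5 in IFT20-KO cells. They also held few naïve-richer cells, 0.503% in stimulated WT and 3.57% in IFT20-KO, against 32.8% and 38.5% of the other cells, and the part of this difference in the ratios was not tested. Of the effector cytokines tested, 5 of 6 in stimulated WT and 4 of 6 in IFT20-KO were at least 2-fold higher, beside 2% of 7002 and 0.855% of 7366 genes. Of a list of transcription factors taken as induced by T cell receptor signaling, 6 of 21 and 7 of 20 were at least 2-fold higher. Not all 27 of this list rose in stimulated over unstimulated WT cells. There 16 were at least 2-fold higher and 5 at least 2-fold lower, beside 19.3% and 23% of all genes. Of the naïve genes 2 of 6 and 4 of 6 were at least 2-fold lower, beside 7.63% and 12.5% of all genes.

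*Il2*, the growth factor of activated T cells, was highest of the effector cytokines, with a log2 ratio of 3.18 (2.97 to 3.38) in stimulated WT and 2.13 (1.78 to 2.46) in IFT20-KO cells, from 238 and 73 UMIs in the producing cells. *Lta*, which encodes lymphotoxin alpha, was at 2.20 and 1.81, and *Tnf* at 1.73 and 1.20. *Cd40lg*, the ligand by which helper T cells act on B cells, was at 1.78 and 1.36. The lowest of the list in both libraries was *Tnfsf11*, which encodes RANKL, at 0.96 in stimulated WT and 0.83 in IFT20-KO cells. *Nr4a1*, an early response factor of receptor signaling, was at 2.08 (1.85 to 2.30) and 2.19 (1.92 to 2.45), with *Nr4a2* at 1.86 and 2.37. *Jun* had the lowest ratio in stimulated WT cells at −2.24, from 1 UMI, and *Nfatc2* the lowest in IFT20-KO cells at −1.36, from 3 UMIs. Both were also lower in stimulated than in unstimulated WT cells, with log2 ratios of −3.05 and −1.07. Of the activation genes other than *Il2*, *Cd69* was at 0.95 and 0.77, while *Il2ra*, the high-affinity receptor chain for IL-2, had the lowest ratio of that list at 0.025 and −0.052. Of the cytotoxic list *Crtam* was highest at 0.98 and 0.85. Of the memory list *Itgb1* was highest in stimulated WT cells at 0.58, and *Cd44* was lowest at −0.53 and −2.15, from 4 and 1 UMIs. *Klf2*, a factor that keeps naïve T cells quiescent, was at −2.92 and −2.94, and *Ccr7*, the receptor that brings naïve T cells to lymph nodes, at −1.73 and −1.92. Of the genes of other lineages, the producing cells had 0 and 1 UMIs of the NK list, 0 and 1 of the B cell list and 1 and 3 of the myeloid list, in stimulated WT and IFT20-KO cells.

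**Figure D5:**
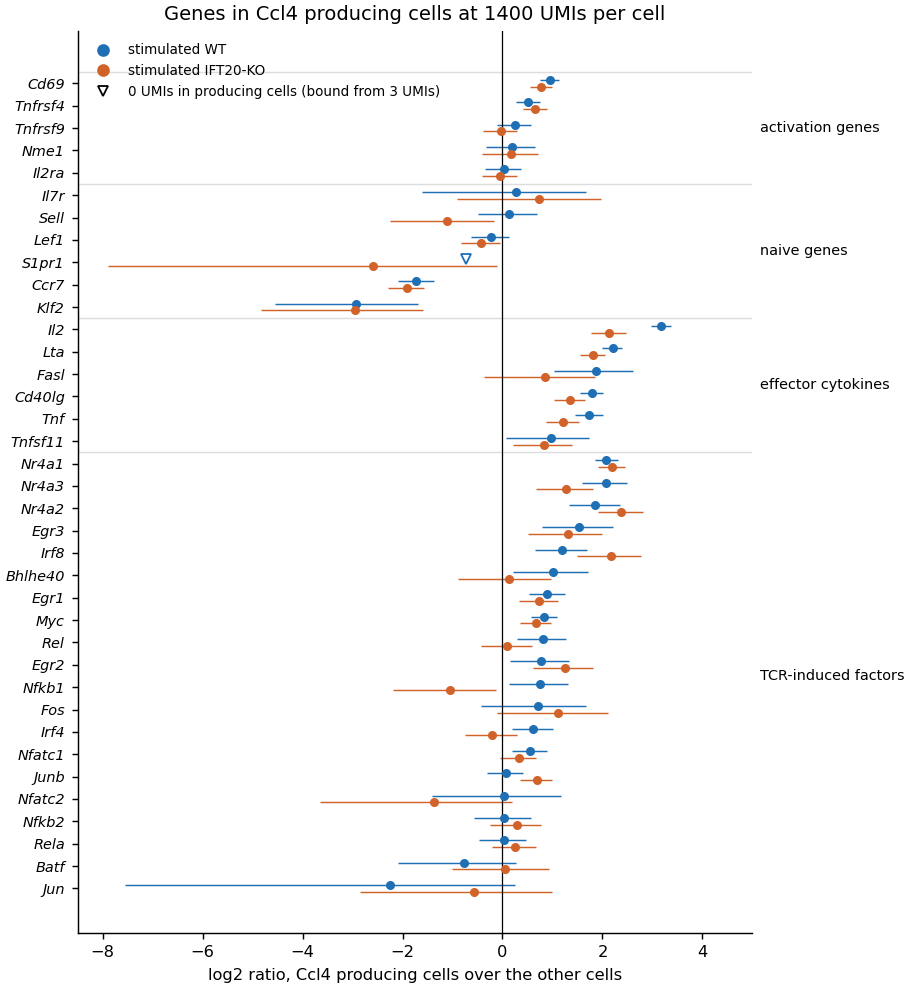
log2 ratio of genes in *Ccl4* producing cells over the other cells of the same library, at 1400 UMIs per cell, with exact 95% counting intervals, for genes of 4 lists with at least 3 UMIs expected in both libraries. *Il2* was highest in stimulated WT cells at 3.18, *Nr4a2* in IFT20-KO cells at 2.37, and *Klf2* was lowest in both.

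Of 32 other chemokine genes in the files, 20 had no UMI in any library, and only *Ccl25*, a ligand of CCR9, exceeded 5 CPM, with 8.54, 12 and 21.2 CPM in unstimulated WT, stimulated WT and IFT20-KO cells. *Ccl20*, named after its values were seen, had 103 UMIs in 3 stimulated WT cells and 0 in the other libraries. Of the receptors, *Ccr7* was at 721, 532 and 681 CPM, *Ccr4* at 1.64, 12.9 and 15.9 CPM, *Ccr8*, the receptor of CCL1, at 1.13, 4.92 and 5.72 CPM, and *Cxcr4* at 7.41, 0.171 and 0.122 CPM. Of other receptors for the members, *Ccr1* had 0 UMIs in all libraries, *Ccr3* had 1 UMI in stimulated WT cells and *Xcr1* had 6, 2 and 3 UMIs.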

How the data were processed

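The deposited files hold counts of UMIs per gene and cell barcode that the authors made with Cell Ranger (the methods name version 3.0.2, the file headers 3.1.0) against mm10, without normalization. Everything else was computed here with scipy 1.17.1, pandas 2.3.3 and numpy 2.4.6 under Python 3.11.15, and plots were drawn by matplotlib 3.10.9.

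The 5 members and the gene lists were chosen with earlier results of these data known. As in the study's methods, the filter asked for over 200 genes and less than 15% mitochondrial UMIs per cell. Doublets were neither called nor removed. UMIs were summed over kept cells and scaled to CPM. A gene with 0 UMIs was set to a floor of 3 UMIs for ratios. Intervals at the 95% level are exact Poisson for CPM, exact binomial for ratios and Clopper-Pearson for shares, and cover counting error only. The 3 libraries have 1 sample per condition, so no test was made. Shares of cells, co-detection, correlations and producing cells used cells thinned to 1400 UMIs, unless given as before thinning. Patterns of members per cell, the uneven pairing of *Ccl3* and *Ccl4* and the concentration in top cells used unthinned counts. Named genes were the members, *Ift20*, the 5 genes most alike each member, chemokines and receptors with at least 5 CPM, *Ccr1*, *Ccr3*, *Ccr8*, *Xcr1* and a further receptor not reported here, and the highest and lowest ratio of each list in producing cells; *Ccl20*, *Cd8b1*, *Ifng*, *Nkg7* and further cytokines and factors were named after their values were seen. Alternatives were other scalings, cell filters, thinning to 3000 UMIs and the removal of the top cells. The estimators were tested on simulated data. Promoter sequences are from RefSeq on GRCm38.p6.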

Additional observations from a re-analysis of the deposited data

Results flagged for a closer look

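The barcodes left out by the mitochondrial filter, 417 of the stimulated WT library, held signal of *Ccl1* (6.62 CPM, 5 UMIs), *Ccl3* (27.8 CPM, 21 UMIs) and *Ccl4* (88.7 CPM, 67 UMIs), above the 222 left-out barcodes of the unstimulated WT library, which had 0 UMIs of the 3 genes. The 12 left-out IFT20-KO barcodes had 0 UMIs of them. These barcodes had a median of 1744 UMIs in stimulated WT and 801.5 in unstimulated WT, and the reason for the signal was not tested.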

How the results depend on the processing

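No paired analysis was possible because each condition had 1 library. The count of members at least 2-fold higher with stimulation was 4 under all 11 alternatives, but leaving out the 1% of cells with the most of a member says nothing of *Ccl1* and *Ccl5*, since the 99 stimulated WT and 80 unstimulated WT cells left out exceed the 56 with *Ccl1* and the 38 with *Ccl5*, so that *Ccl1* had no value and *Ccl5* was counted as a ratio to the floor of 3 UMIs. The count of members at least 2-fold lower in IFT20-KO was 1, except 2 when UMIs were counted per cell without scaling (*Ccl1* and *Ccl3*). Without the top 1% of cells the member was *Ccl5*. That step left out 99 of 197 stimulated WT but 139 of 182 IFT20-KO cells with *Ccl5*, so this call is not read as a difference. The *Ccl5* ratio of stimulated over unstimulated WT changed sign to 0.18 per cell without scaling, and to 0.021 among cells with at least 5000 UMIs, and it was −0.09 without the 3 top cells of each library. Without the top 1% it was 3.38, a ratio to the floor that the step fixes by leaving 0 UMIs in unstimulated WT cells. In IFT20-KO over WT, *Ccl3* changed to 0.14 and *Ccl4* to 0.074 without the top 1% of cells, and *Xcl1* to −0.17 per cell without scaling. *Xcl1* was at 4.14 without the top 1% of cells (320 against 20 UMIs). That step left out 99 of 119 stimulated WT but 139 of 453 IFT20-KO cells with *Xcl1*, so the libraries were not cut alike and 4.14 is not read as a difference. *Ccl5*, at −0.19 with an interval that spans 0, was 0.56 (−0.03 to 1.17) when thinned and 0.13 as a mean of per-cell fractions. The cause of the other changes was not tested. For *Ccl4* producing over other cells, 9 median log2 ratios of the lists moved among cells with at least 5000 UMIs, and 1 did not. In stimulated WT cells the median of the activation genes went from 0.51 to 0.20, and that of the naïve genes from −0.48 to −0.87. In IFT20-KO cells these went from 0.66 to 0.48 and from −1.51 to −1.23. Depth limits the *Ccl1* values, of 9 UMIs in IFT20-KO, and the share of cells with a member, since few cells carry more than 2 UMIs.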
